A study of Mus musculus with 49 samples.

Results

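Ribosome biogenesis and transcription by RNA polymerase I were followed through 49 genes of the 23992 gene symbols counted in splenic CD8+ T cells. The 49 were chosen by symbol from their known roles, with earlier results of these data known. RNA came from 2 mouse lines on the C57BL/6J strain. In the *Stat5a* line the tyrosine of STAT5A that is phosphorylated upon cytokine stimulation was changed to phenylalanine (Y694F), and in the *Stat5b* line the corresponding tyrosine of STAT5B was changed (Y699F). Each line was made by CRISPR/Cas9 editing and is carried in every cell of the animal from the germ line, and the homozygous knockin (KI) cells were set against wild-type (WT) cells of littermates of the same line, from mice of 8 to 24 weeks of both sexes. Purified cells were taken before culture with the cytokine IL-2, which drives T cells to divide (0 hr), or after 4, 24, or 48 hr with human recombinant IL-2 at 500 IU/ml. No group was cultured without IL-2, so the effects of IL-2 and of time in culture cannot be told apart. A change with IL-2, or a response to it, is below a change over both. The 2 lines, 2 genotypes, and 4 times make 16 groups of 3 libraries each, apart from the *Stat5a* KI cells at 4 hr, of which replicate 3 held 1028515 reads on the transcripts used and was left out, which leaves 47 libraries. The others held 17369112 to 60200653 such reads. The sources used here do not say whether the libraries of a group came from separate mice or cultures, and p-values therefore measure the spread between these libraries, which may be technical.

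A ribosome is built around rRNA, which RNA polymerase I transcribes in the nucleolus from repeated genes. Small nucleolar ribonucleoproteins (snoRNPs) then modify the transcript, and a succession of assembly factors cuts it, folds it, and joins it with ribosomal proteins into a small and a large subunit. Resting T cells keep this machinery low and raise it before they divide, and MYC is a known activator of many of its genes. Messenger RNA of the proteins that build ribosomes was measured here, and not rRNA or ribosomes.

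RefSeq promoter windows of build GRCm38.p6, which run from 250 bases before to 50 bases after a transcript start, were given for 42 of the 49 genes. The letters CACGTG, the E-box that MYC with its partner MAX can bind, stood in the window of 11 of the 42 genes (26.2%), against 8.09% of the 27025 symbols with a window. The letters read the same on both strands, so that 1 search covered both. The 11 genes were *Nop2*, *Utp20*, *Mybbp1a*, *Rrn3*, *Pno1*, *Wdr43*, *Pes1*, *Ltv1*, *Tsr1*, *Dhx33*, and *Imp4*. The letters TTCNNNGAA, the GAS motif that STAT5 dimers can bind, also the same on both strands, stood in 3 of the 42 windows (*Polr1b*, *Nop58*, and *Rrn3*; 7.14%), against 9.55% of all symbols. For both motifs the 27025 symbols were not limited to the 15566 genes tested in these cells. All 49 genes were among those tested, so the shares come from unlike sets. The windows of the 4 genes with an E-box whose RNA rose most with IL-2 in WT cells are shown to place the letters relative to the start, as all bases before the start where the E-box lies there and otherwise as a short stretch around it, 5′ to 3′ on the strand of the gene, with CACGTG in capitals. The *Nop2* stretch (chr6:125131633-125131882, plus strand) has its E-box 60 bases before the start. The *Utp20* stretch (chr10:88826765-88826789, minus strand) begins its E-box at base 38 of the transcript, and the *Mybbp1a* stretch (chr11:72441355-72441376, plus strand) at base 41. The *Rrn3* stretch (chr16:13780449-13780698, plus strand) holds the letters 215 and 48 bases before the start.
Nop2: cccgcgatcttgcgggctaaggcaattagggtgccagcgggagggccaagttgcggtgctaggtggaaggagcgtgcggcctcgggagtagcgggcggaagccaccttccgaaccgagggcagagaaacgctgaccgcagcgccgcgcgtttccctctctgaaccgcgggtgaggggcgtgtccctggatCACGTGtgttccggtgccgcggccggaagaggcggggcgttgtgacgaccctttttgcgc
Utp20: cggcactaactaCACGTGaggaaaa
Mybbp1a: gtcttctgagccCACGTGtttg
Rrn3: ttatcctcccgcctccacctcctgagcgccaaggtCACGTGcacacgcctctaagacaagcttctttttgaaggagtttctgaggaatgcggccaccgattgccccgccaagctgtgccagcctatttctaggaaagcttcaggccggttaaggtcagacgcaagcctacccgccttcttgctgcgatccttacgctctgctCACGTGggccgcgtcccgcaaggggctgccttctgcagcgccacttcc
A match of letters is a description of the window. The 11 genes with an E-box had a median log2 fold change at 48 hr of 0.90 (range 0.30 to 1.89, mean of the WT cells of both lines), and the 31 genes with a window without one had 1.07 (−0.02 to 1.80), so the ranges overlapped.

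Markers of CD8 T cells were present in all groups. All 7 CD8 T cell marker genes found, among them *Cd8a* and *Cd3e*, were at 1 RPKM or more on average in each group, and their summed level was 680 to 1912 RPKM over the 47 libraries, with *Cd8b1* the most abundant. RPKM is the authors' read count scaled to transcript length and to the number of mapped reads. Markers of other cells were also present and differed between genotypes. Their values are given with the KI comparisons. One library stood apart. In replicate 2 of the *Stat5a* WT cells at 4 hr only 44.86% of the mapped reads lay on the transcripts used, whereas the median over the 47 libraries was 75.3%, and its RPKM were low across the genes (the 49 genes summed to 1327 RPKM in it and to 1827 and 1857 RPKM in the other 2), although the 49 genes took a larger share of its reads on transcripts (0.827%, against 0.655% and 0.639%). The counts of WT cells of that line at 4 hr, and the values of the genes named there, are given with and without it.

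All 49 genes passed the filter on low counts in all comparisons. Their mean level over the groups ran from 5.62 RPKM for *Polr1e* to 635 RPKM for *Npm1*, the nucleolar chaperone nucleophosmin, and *Npm1* made up more of the sum than any other gene. *Npm1* has processed pseudogenes, so its level from uniquely mapped reads is uncertain. Reads from an overlapping gene could also enter 3 genes in particular, since the use of strand in the counting is not given in the sources used here. The other strand carries exons of *Srr* over 46.3% of the exon bases of *Tsr1* and exons of *Samd11* over 21.5% of those of *Noc2l*, and the same strand carries *D4Ertd617e* over 20.4% of those of *Ebna1bp2*.

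In WT cells the 49 genes together stood at about 2 times their level at 0 hr after 48 hr of IL-2. Among *Stat5a* line WT libraries their summed RPKM was 1890, 1890, and 2011 at 0 hr, 2985, 3010, and 3043 at 24 hr, and 3707, 4168, and 4394 at 48 hr. Among *Stat5b* line WT libraries it was 1761, 1908, and 1982 at 0 hr, 3351, 3421, and 3388 at 24 hr, and 4432, 4345, and 4179 at 48 hr. Each library at 24 hr lay above each at 0 hr, and each at 48 hr above each at 24 hr. At 4 hr the sums of 1798, 1869, and 1908 RPKM in the *Stat5b* line overlapped those at 0 hr, and the *Stat5a* line gave 1827, 1327, and 1856 RPKM. In KI cells the sums at 0 hr overlapped those of WT cells in the *Stat5b* line and lay slightly below them in the *Stat5a* line, and they ended far lower. They were 1781, 1810, and 1775 RPKM at 0 hr and 2546, 2351, and 2404 RPKM at 48 hr in *Stat5a* KI cells. *Stat5b* KI cells had 1721, 1897, and 1705 RPKM at 0 hr and 1976, 1988, and 1814 RPKM at 48 hr. No KI library at 48 hr reached the level of WT cells at 24 hr. In bulk RNA, fewer cells that carry a transcript and less of it in each cell cannot be told apart. The study reports that memory CD8 T cells with high CD122 were a smaller share of cells in mice of both KI lines. It describes such cells as the main ones that divide with a high dose of IL-2. KI and WT cultures may therefore have begun with a different mix of CD8 T cells, and its part in the results was not tested.

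**Figure D1:**
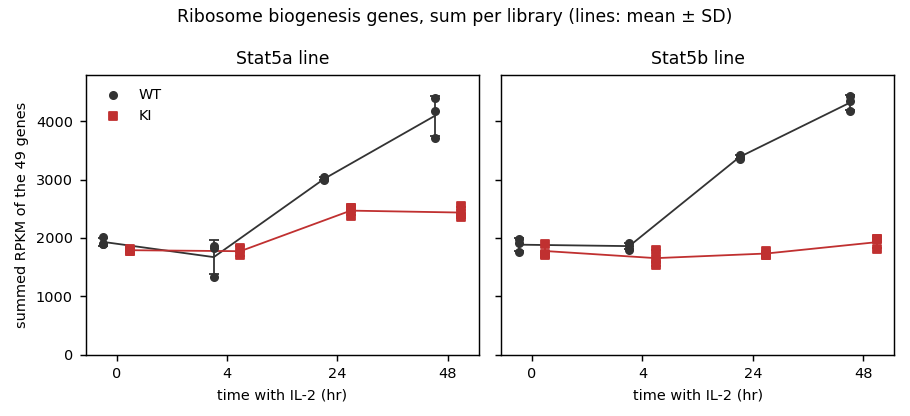
Summed RPKM of the 49 genes in each library (points) against hours with IL-2 (evenly spaced), with the mean ± SD of each group (lines), for WT (black) and KI (red) cells of the *Stat5a* line (left) and the *Stat5b* line (right). WT sums at 48 hr lay between 3707 and 4432, and KI sums between 2351 and 2546 in the *Stat5a* line, compared with 1814 to 1988 in the *Stat5b* line.

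Fold changes below come from a single edgeR quasi-likelihood fit of 15566 genes with TMM scaling, which centres the bulk of the genes, and p-values are Benjamini-Hochberg adjusted over all of them. RPKM with IL-2 include a general shift against that scaling (the median of all genes was higher by 0.36 and 0.32 log2 at 48 hr in WT cells and by 0.32 and 0.22 in KI cells of the *Stat5a* and *Stat5b* lines, on the log2(RPKM + 1) scale). The change of the genes relative to all others is therefore read from the fit and the level from the RPKM.

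Where a pair of values is given, the first belongs to the *Stat5a* line and the other to the *Stat5b* line. The first comparison asked how these genes changed in WT cells cultured with IL-2, against cells before culture. At 48 hr against 0 hr, 25 of the 49 genes in the *Stat5a* line, compared with 28 in the *Stat5b* line, rose at least 2-fold with an adjusted p of at most 0.05, and 0 fell. Of all genes tested, 14.3% and 14.6% rose and 22.3% and 20.7% fell by this rule. With the adjusted p alone, 46 and 47 of the 49 rose and 0 fell (34.1% and 33.1% of all genes rose, and 37.7% and 36.8% fell), and the median log2 fold change was 1.01 (range −0.11 to 1.85) and 1.02 (0.03 to 1.93), against −0.12 and −0.13 for all genes. *Polr1c*, a subunit that RNA polymerases I and III share, and *Imp3*, a small-subunit factor, did not pass the adjusted p in either line, nor did the helicase *Ddx10* in the *Stat5a* line. At 24 hr 11 and 13 genes rose at least 2-fold and 0 fell (8.72% and 9.07% of all genes rose, and 14.2% and 13.5% fell; 20 in the *Stat5b* line with limma on log2(RPKM + 0.1)), and 42 and 45 rose and 0 fell with the adjusted p alone (30.1% and 29.5% of all genes rose, and 28.9% and 30.1% fell), with medians of 0.58 and 0.71. From 24 to 48 hr 40 and 38 of the 49 rose further with the adjusted p alone (22.8% and 21.5% of all genes), by medians of 0.33 and 0.28, and 0 by 2-fold or more (3.83% and 3.05%). With the shallow library restored to the fit the 38 of the *Stat5b* line became 18. Of the 49 genes 48 had their highest group mean in RPKM at 48 hr in the WT cells of each line. RPKM carry the general shift given above, and the share of all genes with that peak was not computed. In RPKM, WT libraries at 48 hr lay above those at 24 hr without overlap for 47 and 43 of the 49 genes (31.9% and 29.3% of all genes). They lay below without overlap for 0 and 1 (23.9% and 30.4%). Across the 49 genes, which are not independent replicates, the log2 changes at 48 hr in the 2 lines, which share no library, though the genes of a line share theirs, had a Pearson r of 0.967 and a Spearman rho of 0.958.

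The response was not a rise from the outset. At 4 hr 13 of the 49 genes in the *Stat5a* line, compared with 10 in the *Stat5b* line, were higher with the adjusted p alone (29.5% and 25.1% of all genes), 19 and 20 were lower (28.9% and 24.5%), and 0 changed by 2-fold, as 10.0% and 5.83% of all genes rose and 11.4% and 9.89% fell. Without replicate 2 at 4 hr, 12 were higher and 23 lower in the *Stat5a* line. The split depends on scaling in the *Stat5b* line, where limma on log2(RPKM + 1) put 14 higher and 10 lower. With the shallow library restored to the fit 8 and 6 were higher and 11 and 10 lower, and a fit of only the 2 groups gave 5 higher and 10 lower in the *Stat5a* line. Among the genes that were already higher at 4 hr in both lines were *Bysl* (log2 fold change 0.69 ± 0.09 and 0.43 ± 0.09, SE), *Dkc1* (0.75 ± 0.10 and 0.45 ± 0.10), *Gnl3l* (0.66 ± 0.07 and 0.44 ± 0.07), and *Wdr12* (0.47 ± 0.07 and 0.47 ± 0.07). Without replicate 2 the *Stat5a* line values were 0.56 for *Bysl*, 0.56 for *Dkc1*, 0.61 for *Gnl3l*, and 0.51 for *Wdr12*, and each passed. *Gnl3*, which encodes the GTP-binding nucleolar protein nucleostemin, was lower by as much, at −0.87 ± 0.06 (−0.94 without replicate 2) and −0.80 ± 0.06, and higher at 48 hr (0.41 ± 0.06 and 0.75 ± 0.06). Its RPKM in WT cells of the *Stat5b* line was 39.8, 36.2, and 38.3 at 0 hr, 25.04, 24.9, and 24.4 at 4 hr, and 72.3, 73.4, and 70.9 at 48 hr, without overlap between the times. Of the 15 genes that were lower at 4 hr in both lines, 14 were higher at 48 hr in both (18 of 19 without replicate 2). Of all genes, 20.4% were lower at 4 hr in both lines, and 16.3% of these were higher at 48 hr in both. The 14 included *Nat10*, an RNA acetyltransferase, *Fbl*, *Pno1*, and *Rrp12*. Across the 49 genes the changes at 4 hr in the 2 lines had a Pearson r of 0.877, and of 0.951 without replicate 2.

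**Figure D2:**
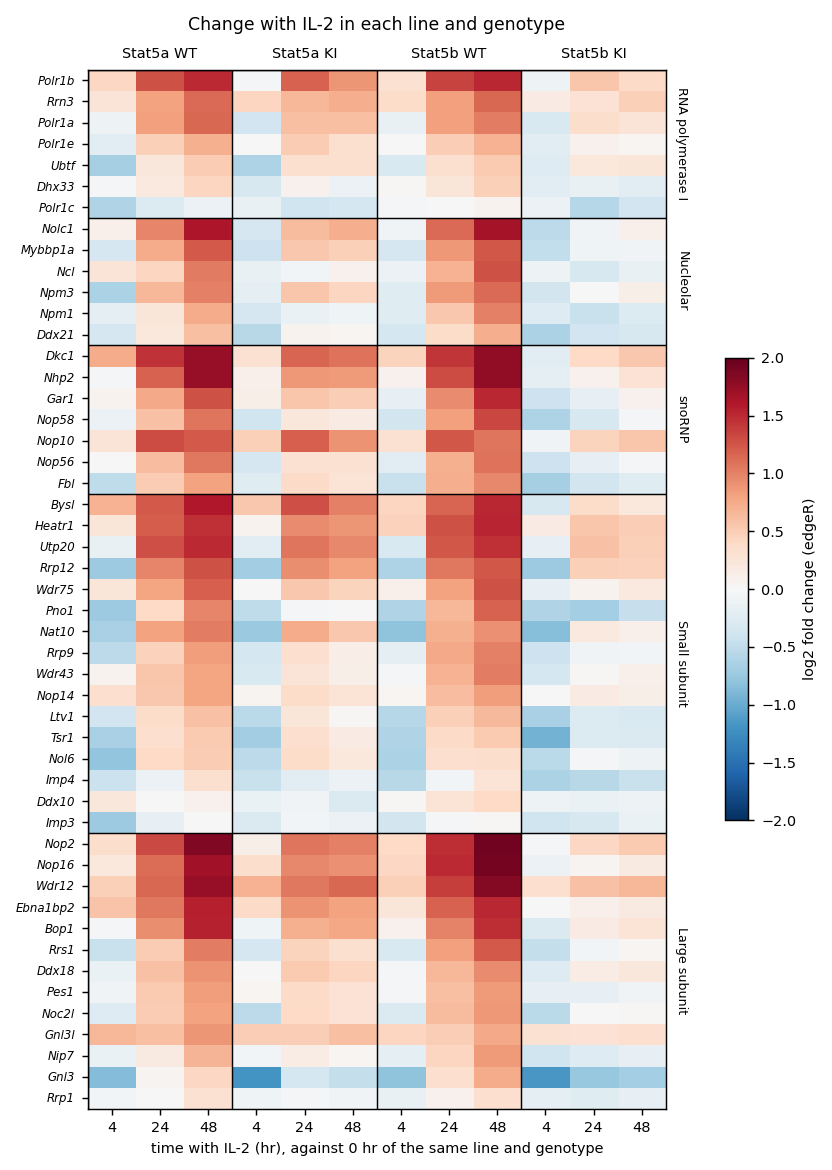
Log2 fold change with IL-2 against 0 hr of the same line and genotype (colour) for each of the 49 genes (rows, grouped by role and ordered by the change in WT cells) at 4, 24, and 48 hr (columns). The WT columns turn red at 24 and 48 hr, where the largest value is 1.93 (*Nop2*), and the *Stat5b* KI columns show 2 genes higher and 32 lower at 4 hr, where *Gnl3* is at −1.17, and 15 higher and 15 lower at 24 hr, by the adjusted p alone.

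By role, the snoRNP genes had the highest median at 48 hr in WT cells, with log2 fold changes of 1.23 in the *Stat5a* line, compared with 1.34 in the *Stat5b* line, and 6 of 7 rose at least 2-fold in each line. The nucleolar proteins followed with 1.02 and 1.19 (4 and 5 of 6). Next came the large-subunit factors with 0.90 and 0.95 (6 of 13 in each line) and the small-subunit factors with 0.81 and 0.96 (6 and 8 of 16), in the other order in the *Stat5b* line. The 7 RNA polymerase I genes had the lowest median, 0.71 and 0.70, and 3 rose at least 2-fold. The ranges of the 5 groups overlapped, from −0.11 to 1.49 for RNA polymerase I and from 0.81 to 1.74 for snoRNP genes in the *Stat5a* line.

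Within RNA polymerase I, the catalytic subunits rose and the shared subunit did not pass the test. *Polr1b*, which encodes the second largest subunit, was at 7.18, 6.92, and 7.00 RPKM in *Stat5a* line WT cells at 0 hr and at 21.7, 24.9, and 21.8 RPKM at 48 hr, and at 7.11, 8.001, and 7.68 RPKM, and 24.6, 23.7, and 24.9 RPKM in the *Stat5b* line. This was 2.81-fold and 2.85-fold in the edgeR fit (log2 1.49 ± 0.07 and 1.51 ± 0.07, SE, adjusted p = 2.18e-19 and 1.38e-19). *Polr1a*, the largest subunit, rose by log2 1.15 ± 0.08 and 1.02 ± 0.08, and *Rrn3*, the initiation factor that carries the polymerase to the promoter, by 1.13 ± 0.10 and 1.14 ± 0.10. *Ubtf*, the factor that keeps rRNA genes open, had the highest level of the group and a smaller rise. It went from 32.7, 30.9, and 34.3 RPKM to 51.8, 56.6, and 52.6 RPKM in the *Stat5a* line (log2 0.51 ± 0.08, adjusted p = 1.07e-06, edgeR) and from 34.1, 36.9, and 34.0 to 56.8, 54.9, and 57.8 RPKM in the *Stat5b* line (0.52 ± 0.08). *Dhx33*, a helicase that assists transcription of rRNA genes, rose least of those that passed (log2 0.42 ± 0.09 and 0.48 ± 0.09), and *Polr1c* was at log2 −0.11 ± 0.14 and 0.06 ± 0.14.

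Among nucleolar proteins, *Nolc1*, a chaperone of snoRNPs, rose most. It was at 20.1, 20.9, and 22.8 RPKM at 0 hr and 68.7, 80.5, and 75.9 RPKM at 48 hr in the *Stat5a* line, and at 19.9, 23.5, and 23.3 RPKM, and 82.4, 76.6, and 78.8 RPKM in the *Stat5b* line, 3.05-fold and 3.16-fold in the fit (adjusted p = 1.19e-16 and 5.00e-17, edgeR). *Npm1* went from 569.2, 582.4, and 607.7 to 979.6, 1090, and 1318 RPKM in the *Stat5a* line, and it went from 500.0, 531.1, and 575.8 to 1256, 1247, and 1149 RPKM in the *Stat5b* line, log2 0.74 ± 0.09 and 1.01 ± 0.09. In RPKM, which is scaled to transcript length, the smaller fold of *Npm1* added more than the larger fold of any other gene. In reads without that scaling, the longer *Ncl* reached a higher count (162420 at most, against 128477 for *Npm1*). *Ncl*, nucleolin, rose by log2 1.03 ± 0.13 and 1.28 ± 0.13, and the helicase *Ddx21* by 0.60 ± 0.06 and 0.72 ± 0.06.

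The snoRNP group comprises the box C/D proteins that methylate rRNA and the box H/ACA proteins that convert uridine to pseudouridine. *Fbl*, the methyltransferase fibrillarin, went from 106.2, 104.7, and 119.05 RPKM at 0 hr to 196.2, 238.6, and 231.9 RPKM at 48 hr in the *Stat5a* line, and it went from 92.0, 105.3, and 111.5 to 239.2, 241.6, and 198.5 RPKM in the *Stat5b* line (log2 0.81 ± 0.08 and 0.97 ± 0.08). *Nhp2*, a core protein of box H/ACA particles, went from 25.1, 27.9, and 29.8 to 97.3, 111.3, and 111.9 RPKM and from 25.3, 31.8, and 32.7 to 120.1, 113.7, and 113.4 RPKM (log2 1.74 ± 0.10 and 1.78 ± 0.10, adjusted p = 1.11e-17 and 6.32e-18, edgeR). *Dkc1*, the pseudouridine synthase dyskerin, rose by nearly the same amount as *Nhp2*, log2 1.74 ± 0.10 and 1.78 ± 0.10. *Gar1*, another H/ACA protein, went from 20.6, 17.3, and 26.3 to 49.8, 65.3, and 65.2 RPKM and from 16.1, 18.8, and 21.8 to 62.7, 66.2, and 51.6 RPKM.

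In the assembly groups the genes at the ends of the range are named. *Bysl*, needed late in small-subunit assembly, rose most of the small-subunit factors on average over the lines, from 4.81, 5.67, and 5.74 to 16.9, 20.2, and 19.6 RPKM in the *Stat5a* line, and it went from 5.71, 6.34, and 6.65 to 20.1, 19.8, and 19.8 RPKM in the *Stat5b* line (log2 1.60 ± 0.09 and 1.50 ± 0.09). *Pno1*, another late small-subunit factor, went from 20.2, 20.9, and 22.5 to 41.1, 50.7, and 53.2 RPKM and from 19.7, 20.1, and 20.4 to 53.3, 51.4, and 49.5 RPKM (log2 0.98 ± 0.08 and 1.19 ± 0.08). *Imp3* was the most abundant of this group and stood at 48.0, 48.6, and 53.7 RPKM at 0 hr and 56.1, 55.5, and 61.0 RPKM at 48 hr in the *Stat5a* line (log2 −0.01 ± 0.13, adjusted p = 0.964, edgeR). On the large-subunit side, *Nop2*, a methyltransferase of large-subunit rRNA, rose most of all 49 genes. It was at 12.9, 12.1, and 14.3 RPKM at 0 hr and 51.8, 56.9, and 55.0 RPKM at 48 hr in the *Stat5a* line, and at 11.9, 13.7, and 14.5 RPKM, and 59.0, 55.3, and 58.7 RPKM in the *Stat5b* line, which was 3.60-fold and 3.82-fold (log2 1.85 ± 0.08 and 1.93 ± 0.08, adjusted p = 2.43e-21 and 7.04e-22, edgeR). *Nop16*, also needed for the large subunit, went from 8.73, 8.11, and 9.18 to 28.7, 33.6, and 34.4 RPKM and from 7.39, 8.38, and 8.83 to 36.0, 34.6, and 33.6 RPKM. *Rrp1*, the most abundant large-subunit factor, changed least in its group, from 65.2, 62.9, and 63.4 to 87.4, 95.8, and 89.8 RPKM and from 63.7, 66.6, and 67.0 to 95.2, 93.2, and 92.4 RPKM (log2 0.30 ± 0.07 and 0.34 ± 0.07). At 48 hr the RPKM of *Nop2* remained below that of *Rrp1* in each WT library.

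**Figure D3:**
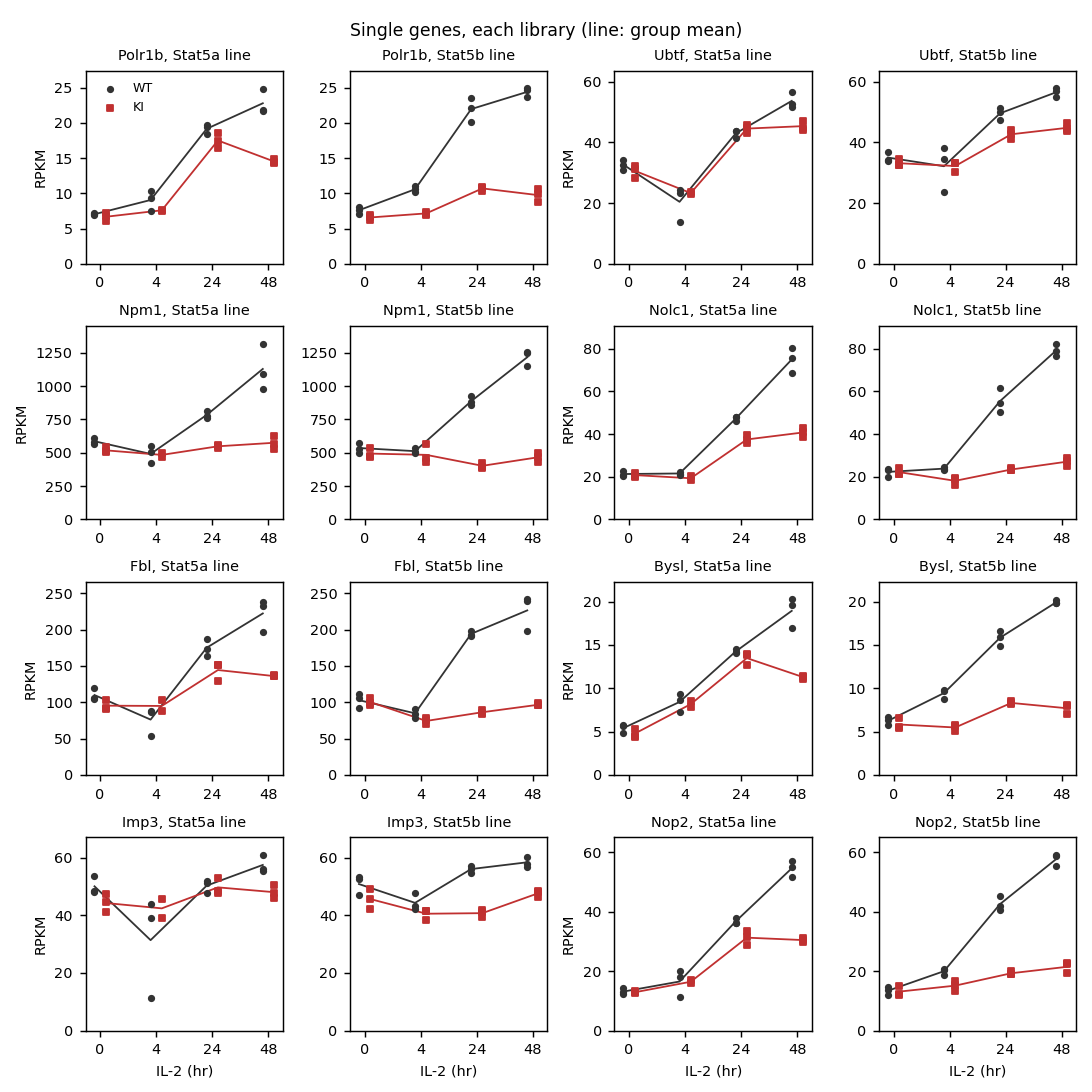
RPKM of 8 genes in each library (points) against hours with IL-2 (evenly spaced), with group means (lines), for WT (black) and KI (red) cells, with the *Stat5a* and *Stat5b* lines in neighbouring panels. *Polr1b*, *Npm1*, *Nolc1*, *Fbl*, *Bysl*, and *Nop2* climb in WT cells and part from KI cells by 24 hr in the *Stat5b* line, and *Imp3* stays between 46.9 and 61.0 RPKM in WT cells at 0, 24, and 48 hr.

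The second comparison set KI against WT cells of the same line at each time and asked how these genes differed with genotype. Without IL-2 the difference was small. In *Stat5a* KI cells 0 of 49 genes differed with the adjusted p in the edgeR fit (7 genes had an unadjusted p under 0.05, 0 passed with DESeq2 or with limma on log2(RPKM + 1), and 0.880% of all genes were lower), with a median log2 fold change of −0.09, and in *Stat5b* KI cells 8 were lower with the adjusted p alone (9.26% of all genes), with a median of −0.11. This count ran from 1, with limma on log2(RPKM + 1) or with the shallow library restored to the fit, to 14 in a fit of only the 2 groups, and from 4 without replicate 1 of the KI cells to 11 without replicate 3 of the WT cells. At 4 hr 34 of the 49 were lower in *Stat5b* KI cells (12.8% of all genes), with a median of −0.36, and 13 were lower with limma on log2(RPKM + 1) and 12 with the shallow library restored to the fit. In *Stat5a* KI cells 17 were lower at 4 hr (12.7% of all genes), and this direction is not settled, since limma on log2(RPKM + 1) put 13 higher and 1 lower, a fit of only the 2 groups called 0, 13 were lower without replicate 2 of the WT cells, and 3 were lower without replicate 1 of the KI cells. At 24 hr 24 genes were lower in *Stat5a* KI cells with the adjusted p alone (9.01% of all genes), with a median of −0.24 and 0 by 2-fold or more (1.24%). This count was 14 without replicate 1 of the KI cells, 11 with limma on log2(RPKM + 1), and 10 with the shallow library restored. At the same time all 49 were lower in *Stat5b* KI cells with the adjusted p alone (26.3% of all genes), with a median of −0.86 and 19 by 2-fold or more (5.77% of all genes).

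The KI libraries lay below the WT libraries without overlap for 34 and 49 of the 49 genes at 24 hr (14.3% and 29.7% of all genes), and for all 49 in both lines at 48 hr (26.1% and 32.1%). At 48 hr 47 of the 49 genes in *Stat5a* KI cells were lower with the adjusted p alone (22.8% of all genes), 5 of them by 2-fold or more (2.43%), and the median log2 fold change was −0.68 (range −1.08 to −0.29). In *Stat5b* KI cells all 49 were lower (30.5% of all genes), 33 of them by 2-fold or more (9.81%), and the median was −1.19 (−1.63 to −0.37). The median of all genes was 0.04 and 0.10. The 5 genes that fell 2-fold in *Stat5a* KI cells were *Gar1*, *Pno1*, *Nop58*, *Ncl*, and *Npm1*, and with limma on log2(RPKM + 1) 0 passed the 2-fold mark, so these lie at the edge of it. *Imp3* and *Polr1c* missed the adjusted p in the *Stat5a* line (0.0555 and 0.0539, edgeR). Since the 2 lines share no library, the changes at 48 hr can be set side by side, and across the 49 genes these effects had a Pearson r of 0.921 and a Spearman rho of 0.935.

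**Figure D4:**
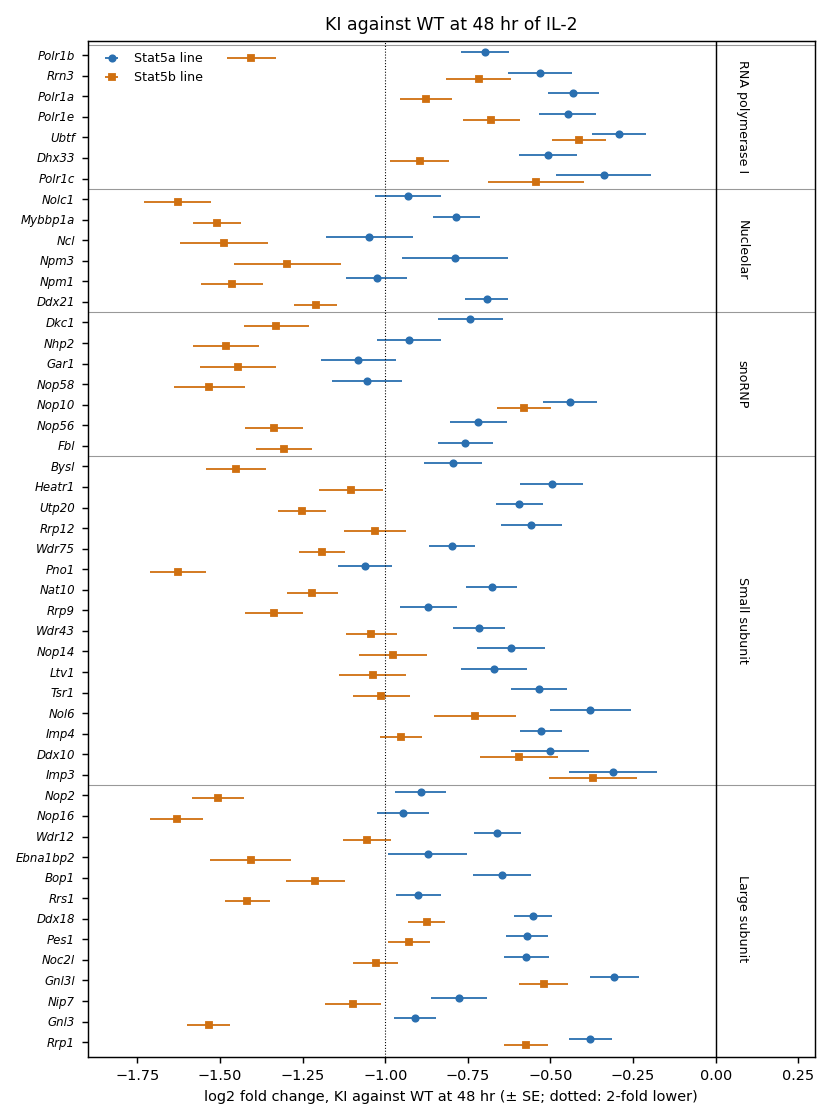
Log2 fold change of KI against WT cells at 48 hr (± SE) for each of the 49 genes (rows, grouped by role) in the *Stat5a* line (blue) and the *Stat5b* line (orange). All 98 points lie left of 0, and 33 genes of the *Stat5b* line and 5 of the *Stat5a* line reach the dotted 2-fold line.

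By role, the nucleolar proteins had the most negative median KI effect at 48 hr, −0.86 in the *Stat5a* line, compared with −1.48 in the *Stat5b* line, where all 6 fell by 2-fold or more. The snoRNP genes followed with −0.76 and −1.34 (6 of 7 by 2-fold in the *Stat5b* line), then the large-subunit factors with −0.66 and −1.10 (9 of 13) and the small-subunit factors with −0.61 and −1.04 (11 of 16). The RNA polymerase I genes had the smallest median, −0.45 and −0.72, and *Polr1b* alone of the 7 fell by 2-fold in the *Stat5b* line. Ranges overlapped, from −1.05 to −0.69 for nucleolar proteins and from −1.08 to −0.44 for snoRNP genes in the *Stat5a* line. *Nolc1* was at 42.9, 38.6, and 40.9 RPKM in *Stat5a* KI cells, compared with 28.9, 27.4, and 25.04 RPKM in *Stat5b* KI cells at 48 hr, 1.91-fold and 3.09-fold below WT cells (log2 −0.93 ± 0.10 and −1.63 ± 0.10, adjusted p = 2.02e-09 and 3.97e-16, edgeR). *Npm1* was at 629.0, 530.6, and 565.0 RPKM, and 466.5, 499.6, and 433.5 RPKM (log2 −1.03 ± 0.09 and −1.46 ± 0.09). Each of the 3 *Stat5b* KI libraries lay below all 3 WT libraries of that line at 0 hr, though the closest values were nearly equal. Against *Stat5b* KI cells at 0 hr the fit gave log2 −0.27 ± 0.09 for *Npm1* (adjusted p = 0.0134, edgeR).

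*Nop16* and *Pno1* joined *Nolc1* as the genes with the most negative values in the *Stat5b* line. *Nop16* was at 19.1, 16.6, and 16.4 RPKM in *Stat5a* KI cells, compared with 12.5, 12.4, and 10.7 RPKM in *Stat5b* KI cells (log2 −0.95 ± 0.08 and −1.63 ± 0.08). *Pno1* was at 27.4, 22.1, and 22.6 RPKM, and 18.1, 18.4, and 16.3 RPKM (log2 −1.06 ± 0.08 and −1.63 ± 0.08, adjusted p = 3.14e-12 and 3.40e-18, edgeR). In *Stat5b* KI cells the 3 *Pno1* libraries at 48 hr lay below all 3 at 0 hr (20.7, 22.1, and 21.1 RPKM), whereas in WT cells *Pno1* rose over the same time. *Gar1* had the most negative value in the *Stat5a* line, with 30.2, 27.4, and 30.5 RPKM in KI cells (log2 −1.08 ± 0.11), and 22.8, 23.2, and 24.0 RPKM in *Stat5b* KI cells (−1.45 ± 0.12). *Bysl* was at 11.3, 11.1, and 11.4 RPKM, and 7.97, 8.01, and 7.08 RPKM, *Fbl* at 137.1, 135.6, and 135.5 RPKM, and 95.6, 95.6, and 98.7 RPKM, *Nhp2* at 61.6, 57.4, and 55.6 RPKM, and 46.6, 46.2, and 38.6 RPKM, and *Nop2* at 30.4, 31.1, and 29.7 RPKM, and 22.6, 22.5, and 19.2 RPKM. For these 4 genes the log2 fold changes were −0.80, −0.76, −0.93, and −0.89 in the *Stat5a* line, compared with −1.45, −1.31, −1.48, and −1.51 in the *Stat5b* line.

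At the other end stood *Gnl3l*, *Ubtf*, and *Imp3*. *Ubtf* was at 47.2, 44.0, and 44.9 RPKM in *Stat5a* KI cells at 48 hr and 46.4, 43.7, and 44.3 RPKM in *Stat5b* KI cells (log2 −0.29 ± 0.08 and −0.41 ± 0.08, adjusted p = 0.00355 and 4.22e-05, edgeR). *Gnl3l*, a GTP-binding relative of *Gnl3*, was at 15.4, 14.6, and 14.5 RPKM, and 14.0, 14.0, and 12.9 RPKM (−0.31 ± 0.07 and −0.52 ± 0.07), against 16.3, 18.5, and 18.4 RPKM, and 18.8, 18.5, and 18.2 RPKM in WT cells. *Imp3* was at 47.7, 50.6, and 45.9 RPKM, and 48.6, 48.2, and 46.4 RPKM (−0.31 ± 0.13 and −0.37 ± 0.13). *Rrp1* was at 72.9, 71.9, and 72.5 RPKM, and 69.0, 65.6, and 64.5 RPKM, and *Polr1b* at 14.4, 14.3, and 14.9 RPKM, and 10.5, 9.88, and 8.78 RPKM (log2 −0.70 ± 0.07 and −1.41 ± 0.07).

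The third comparison followed IL-2 within KI cells. In *Stat5a* KI cells at 48 hr 31 genes were higher than at 0 hr and 3 lower with the adjusted p alone (31.8% and 30.6% of all genes), and 4 rose by 2-fold or more, *Wdr12*, *Dkc1*, *Bysl*, and *Nop2* (9.31% of all genes), a count that ran from 2 to 13 over the alternatives with the 2-fold rule. At 24 hr 36 were higher and 3 lower (29.8% and 27.7%), 7 by 2-fold or more (7.36%, and 12 genes with limma on log2(RPKM + 1)), and 34 of the 49 had their highest group mean in RPKM at 24 hr, unlike WT cells. That is a rank of group means whose share over all genes was not computed, and 48 against 24 hr was not tested in KI cells. *Polr1b* in *Stat5a* KI cells was at 16.5, 18.6, and 17.4 RPKM at 24 hr and 14.4, 14.3, and 14.9 RPKM at 48 hr, without overlap. In *Stat5b* KI cells 17 were higher and 11 lower at 48 hr (24.7% and 26.9% of all genes), 15 were higher and 15 lower at 24 hr (21.1% and 26.7%), and 0 rose by 2-fold at either time (5.56% and 4.59% of all genes did). With the shallow library restored to the fit 9 were higher and 3 lower at each of these times. The median log2 fold change at 48 hr was 0.33 in *Stat5a* KI cells, compared with 0.09 in *Stat5b* KI cells. At 4 hr 8 and 2 genes were higher (25.2% and 22.8% of all genes) and 23 and 32 lower (25.2% and 25.7%) in *Stat5a* and *Stat5b* KI cells, and 1 gene, *Gnl3*, fell by 2-fold or more in both, with log2 −1.20 ± 0.07 and −1.17 ± 0.07 (11.2% and 8.85% of all genes fell by this rule). With limma on log2(RPKM + 1) 0 genes passed the 2-fold rule in either line, and with the shallow library restored 4 genes were higher and 1 lower by it in *Stat5a* KI cells. With limma on log2(RPKM + 1) the split in *Stat5a* KI cells turned to 11 higher and 8 lower, and that in *Stat5b* KI cells to 5 higher and 13 lower (1 and 14 with the shallow library restored). *Gnl3* was at 36.9, 35.7, and 37.7 RPKM at 0 hr, 18.7, 21.2, and 17.7 RPKM at 4 hr, and 26.5, 27.5, and 25.02 RPKM at 48 hr in *Stat5b* KI cells, so that the early decrease was followed by a partial return and not by the rise of WT cells.

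The difference between the responses was tested itself, as the interaction of genotype and IL-2 at 48 hr. The change with IL-2 was lower in KI than in WT cells, that is less positive or of the opposite sign, for 43 of the 49 genes in the *Stat5a* line, compared with 46 in the *Stat5b* line, with the adjusted p alone (16.2% and 25.6% of all genes), 0 and 26 by 2-fold or more (3.09% and 11.1%), with medians of −0.57 and −1.01. *Ubtf*, *Imp3*, and *Polr1c* did not pass in either line, nor did *Ddx10*, *Nol6*, and *Npm3* in the *Stat5a* line. With the shallow library restored to the fit 25 passed in the *Stat5a* line. The sign of a small change depends on the scaling. In RPKM, KI libraries at 48 hr lay above those at 0 hr without overlap for 43 and 28 of the 49 genes (46.9% and 41.4% of all genes). They lay below without overlap for 1 and 6 (25.2% and 23.4%). The share over all genes was not computed for the next count, which is on the TMM scale. Of the 46 and 47 genes that rose in WT cells, 5 and 19 had a log2 change below 0 in KI cells, whether or not it passed the test. Among them were *Gnl3*, at 0.41 ± 0.06 in WT cells and −0.48 ± 0.06 in KI cells of the *Stat5a* line (*Stat5b* line, 0.75 ± 0.06 and −0.67 ± 0.06), and, from the latter line, *Pno1* (1.19 ± 0.08 and −0.46 ± 0.08) and *Imp4* (0.28 ± 0.06 and −0.45 ± 0.06). *Nop16* in the *Stat5b* line had the largest interaction, log2 −1.74 ± 0.11 (adjusted p = 8.48e-15, edgeR).

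**Figure D5:**
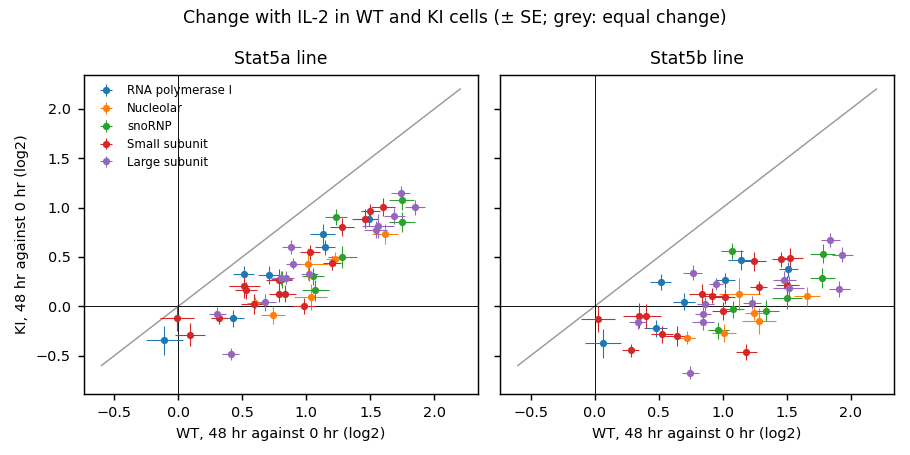
Log2 fold change at 48 hr against 0 hr (± SE) in KI cells (vertical axis) against WT cells (horizontal axis) for each of the 49 genes, coloured by role, in the *Stat5a* line (left) and the *Stat5b* line (right), with equal change in grey. The points lie below the grey line in both panels, and in the *Stat5b* line they spread around 0 on the vertical axis (median 0.09).

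The lines were then compared directly by their KI effect at 48 hr. In the *Stat5b* line the effect was more negative for 33 of the 49 genes with the adjusted p alone (7.83% of all genes) and for 0 by 2-fold or more (0.514%), with a median difference of −0.46 log2 against 0.00 for all genes. For 0 of the 49 was the effect more negative in the *Stat5a* line by the adjusted p. The largest differences were those of *Mybbp1a*, *Polr1b*, *Nolc1*, and *Nop16*, with *Polr1b* at log2 −0.71 ± 0.10 (adjusted p = 3.81e-05, edgeR). *Ubtf*, *Imp3*, *Gnl3l*, *Rrp1*, and *Gar1* were among the 16 genes that did not pass, with differences of −0.12 ± 0.12, −0.06 ± 0.19, −0.21 ± 0.10, −0.20 ± 0.09, and −0.36 ± 0.16. With limma on log2(RPKM + 1) 16 genes passed, and with the shallow library restored to the fit 6 did.

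Markers of other cells moved with genotype. All 7 B cell markers were higher by 2-fold or more in KI cells at 48 hr in both lines. Their summed level, led by *Cd79a*, was 109.8, 97.9, and 117.7 RPKM in *Stat5a* KI cells against 38.7, 31.2, and 13.1 RPKM in WT cells, and 122.9, 120.5, and 126.3 RPKM in *Stat5b* KI cells against 12.9, 11.1, and 13.4 RPKM. Of 8 macrophage markers, led by *Lyz2*, 7 and 8 were higher, with mean sums of 36.3 RPKM against 5.45 RPKM, and 76.5 RPKM against 3.58 RPKM, and 1 marker was at 0 in every *Stat5b* line WT library at 48 hr. Of 7 erythroid markers, led by *Hbb-b1*, 0 and 7 were higher, with mean sums of 25.5 RPKM against 9.49 RPKM, and 213.5 RPKM against 7.95 RPKM, and 1 was at 0 in those same WT libraries. *Hba-a1* and *Hba-a2* had identical values, and *Hbb-bs* and *Hbb-b1* nearly so (log2 4.81 each in *Stat5b* KI cells), so these markers are not independent and the sums may count the same reads under more than 1 symbol. Of 4 CD4 T cell markers, led by *Cd4*, 2 and 3 were higher, with mean sums of 12.9 RPKM against 4.99 RPKM, and 17.4 RPKM against 3.77 RPKM. The 5 genes listed as NK cell markers moved both ways, 0 and 2 higher and 1 and 2 lower by 2-fold or more. *Ncr1* was higher (log2 0.85 and 2.06), *Klrb1c* lower (−0.66 and −1.38), and the most abundant, *Eomes*, which activated CD8 T cells also express, lower (−1.35 and −1.01). The sum of the list, 46.2 RPKM against 80.4 RPKM, and 50.01 RPKM against 75.3 RPKM, is mostly that of *Eomes* and is no measure of NK cells. None of the CD8 T cell markers was lower at 48 hr with the adjusted p alone. Their sums were 1719, 1876, and 1733 RPKM in *Stat5a* KI cells against 1387, 1278, and 1266 RPKM in WT cells, and 1912, 1799, and 1716 RPKM in *Stat5b* KI cells against 1231, 1244, and 1272 RPKM, and 5 and 6 of the 7 were higher with the adjusted p alone. At 0 hr 2 and 6 of the 7 CD8 T cell markers were lower in KI cells and 0 higher. At 4 hr 1 and 3 were lower and 1 was higher in each line. The sum at 0 hr in the *Stat5b* line was 1202, 1170, and 1126 RPKM in KI cells against 1342, 1525, and 1491 RPKM in WT cells. At 0 hr, where the 49 genes differed by a median of −0.11 in the *Stat5b* line, the B cell sum already stood at 215.5, 221.9, and 221.1 RPKM in KI cells against 54.8, 53.9, and 61.1 RPKM in WT cells. The erythroid sum at 0 hr in that line, with the limit on such sums given above, was 1235, 501.7, and 733 RPKM in KI cells. In WT cells it was 47.8, 71.2, and 147.2 RPKM. In replicate 1 of these KI cells it exceeded the CD8 T cell sum of 1202 RPKM. By 2-fold or more, 2 and 7 B cell, 2 and 8 macrophage, and 0 and 7 erythroid markers were higher in KI cells at 0 hr. In the same order these counts were 3 and 7, 5 and 7, and 0 and 7 at 4 hr. They were 7 and 7, 7 and 8, and 0 and 7 at 24 hr. The part of these cells in the results was not tested.

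Other genes of the pathway and of the ribosome itself set the 49 genes in context. Of the further ribosome biogenesis genes tested, 95 rose, 3 fell, and 11 did not pass the adjusted p alone at 48 hr in *Stat5a* line WT cells, 97 rose, 1 fell, and 11 did not pass in the *Stat5b* line, and the medians were 0.76 and 0.79. In KI cells 101 and 103 of them were lower than in WT cells at 48 hr, with medians of −0.55 and −0.87. *Ruvbl2*, an ATPase of the snoRNP assembly complex, rose most (log2 2.01 and 2.06), followed by *Noc4l* (1.87 and 1.75), and *Rpf2* (1.64 and 1.91). *Taf1d*, a subunit of the promoter selectivity factor of RNA polymerase I, fell in WT cells of both lines (−0.92 and −0.55), and was lower still in KI cells (−0.80 and −0.72 against WT cells). *Taf1c* of the same factor was at −0.38 and −0.35, past the adjusted p in the *Stat5a* line (0.0474, edgeR), and *Znrd1*, a small subunit of RNA polymerase I, was at −0.25 and −0.18 and passed in the *Stat5a* line (adjusted p 0.0106 and 0.0614, edgeR).

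Genes for the ribosomal proteins split by compartment. Of 76 mitochondrial ribosomal proteins 73 and 72 rose in WT cells at 48 hr (34.1% and 33.1% of all genes) and 0 fell (37.7% and 36.8%), with medians of 0.98 and 1.03. In KI cells 71 and 75 were lower (22.8% and 30.5% of all genes, medians −0.53 and −0.83). Of 86 cytosolic ribosomal proteins 69 fell and 2 or 3 rose in WT cells in each line relative to all genes (of which 37.7% and 36.8% fell), with medians of −0.45 and −0.50, on the TMM scale. The list was not recomputed under another scaling, and RPKM carry the general shift in the other direction given above. KI cells differed from WT cells at 48 hr by medians of −0.08 and −0.12 in this list, with 16 and 27 of the 86 lower and 0 and 5 higher. Of all 15566 genes 3556 and 4748 were lower (22.8% and 30.5%) and 3342 and 5148 higher, so the lower counts of this list lay near those shares. *Rps27l* was the extreme that rose (log2 2.22 and 2.34), and *Mrpl51* that of the mitochondrial list (2.23 and 2.18), whereas *Mrpl9* was at −0.23 and −0.25 and did not pass. *Myc*, whose product activates many of these genes, was at 21.7, 19.1, and 21.2 RPKM at 0 hr and 89.4, 102.5, and 99.5 RPKM at 4 hr in WT cells of the *Stat5b* line, when the sum of the 49 genes still overlapped that at 0 hr, and in KI cells at 31.2, 35.7, and 25.2 RPKM at 0 hr, higher than in WT cells (log2 0.51 ± 0.18, adjusted p = 0.0335, edgeR), and at 43.0, 39.2, and 35.9 RPKM at 4 hr (log2 −1.42 ± 0.18 against WT cells, adjusted p = 1.79e-07, edgeR). In the *Stat5a* line *Myc* was at 43.2, 53.5, and 20.3 RPKM in WT cells at 0 hr, with replicate 3 low, and at 85.2, 75.6, and 87.6 RPKM at 4 hr, and in KI cells at 59.4, 54.6, and 46.8 RPKM at 0 hr and 52.2 and 54.3 RPKM at 4 hr. Against WT cells *Myc* in *Stat5a* KI cells was lower at 4 hr (log2 −0.96 ± 0.20, adjusted p = 0.00149, edgeR) and 48 hr (−0.56 ± 0.17, 0.00867), and was at −0.28 ± 0.17 at 24 hr, which did not pass (0.297). In *Stat5b* KI cells it was lower at 24 hr (−1.38 ± 0.18) and 48 hr (−1.20 ± 0.18) too. The RNA of the mutated genes was present in all groups. At 0 hr *Stat5a* was at 19.5, 19.0, and 20.5 RPKM in WT cells of its line and 17.9, 20.6, and 21.5 RPKM in KI cells, and *Stat5b* was at 28.3, 29.7, and 29.5 RPKM in WT cells of its line and 26.8, 27.2, and 27.0 RPKM in KI cells. A substitution of 1 amino acid does not show in such counts.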

How the data were processed

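RNA-seq of 48 libraries was analysed. Per the labels and the study's methods, the authors made libraries from 100 ng of total RNA, mapped 50 bp reads to mm10 (GRCm38) with TopHat2 (2.0.11), kept reads that mapped uniquely, and deposited for each of 31682 RefSeq transcripts a raw read count and an RPKM, the count scaled to transcript length and mapped reads. The authors used edgeR for differential expression. SAMtools (0.1.8) and bedtools (2.25.0) are named in the submitters' processing notes without a role, and how strand was used in counting is not given in the sources used here. The longest transcript per symbol was used, and the shallow *Stat5a* KI library at 4 hr (replicate 3) was left out. Counts were fitted in R 4.3.3 with edgeR 4.0.16 (TMM, filterByExpr with a minimum count of 10, quasi-likelihood test, 1 mean per group), and genes were called at an adjusted p of at most 0.05, alone or with a fold of at least 2. On simulated data the fit was checked before use. Alternatives used DESeq2 1.42.0 and its size factors, limma 3.58.1 on log2(RPKM + 1) and log2(RPKM + 0.1) of genes with at least 1 RPKM in at least 3 libraries, no filter, all 48 libraries, only the groups compared, the transcript with the highest count, a replicate block, and each library left out. Replicate numbers paired WT libraries of the *Stat5a* line at 24 and 0 hr (correlations of deviations 0.225, 0.287, and 0.44), at 48 and 0 hr (0.167, 0.135, and 0.214), and at 48 and 24 hr (0.235, 0.109, and 0.295). The pairing comes from the data, and the labels do not explain it. No pair of libraries of a group was a duplicate (chi-square per gene 4.28 to 194 over 46 pairs). Depth limits only counting error, and a count of 3 was the floor. The genes and the comparison lists were chosen with earlier results of these data known. Values per library were given for the genes with the highest level and the largest WT rise of each role and those with the extreme KI effects at 48 hr, and other genes are named as examples after their values were seen. The ChIP-seq and proteome were not analysed here. Plots used Python 3.11.15 and matplotlib 3.10.9.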

Additional observations from a re-analysis of the deposited data

Results flagged for a closer look

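At 48 hr the KI effect differed between the lines for 33 of the 49 genes with the adjusted p of the edgeR fit (7.83% of all genes were more negative in the *Stat5b* line), for 16 with limma on log2(RPKM + 1), and for 6 with the shallow library restored to the fit, each with the more negative value in the *Stat5b* line. This was flagged because the same contrast gave different effects in 2 lines by a test of the difference. Among the genes described by library, the difference (*Stat5b* line minus *Stat5a* line, log2) was −0.71 for *Polr1b*, −0.70 for *Nolc1*, −0.68 for *Nop16*, −0.66 for *Bysl*, −0.61 for *Nop2*, −0.57 for *Pno1*, −0.55 for *Nhp2*, −0.55 for *Fbl*, and −0.44 for *Npm1*. Line and mutated gene cannot be told apart. B cell and macrophage marker sums and the globin gene *Hbb-b1* were also farther above WT cells in *Stat5b* KI cells, and their part in the difference was not tested.

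The response to IL-2 at 48 hr differed between KI and WT cells for 43 of the 49 genes in the *Stat5a* line (25 with the shallow library restored to the fit), and for 46 in the *Stat5b* line (adjusted p, edgeR), each with the lower, that is less positive or opposite, log2 change in KI cells. Of all genes, 16.2% and 25.6% differed in that direction. No group held 4 or more libraries, so single libraries were not tested as outliers.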

How the results depend on the processing

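At 48 hr the balance of higher and lower calls among the 49 genes reversed under no alternative run, in WT cells against 0 hr and in KI against WT cells. The counts that changed are given below. Counts are totals of the 49 genes, with the value as reported in brackets. For WT cells at 24 against 4 hr, 4166 and 3672 of all 15566 genes were higher with the adjusted p alone. By the 2-fold rule 1162 and 1142 of them were higher. Without the 2-fold rule the counts became, for WT cells against 0 hr at 4, 24, and 48 hr, 32, 42, and 46 in the *Stat5a* line [0, 11, 25], then 30, 45, and 47 in the *Stat5b* line [0, 13, 28], for 24 against 4 hr 43 and 46 [10, 17], for 48 against 24 hr 40 and 38 [0, 0], for KI cells against 0 hr 31, 39, and 34 [1, 7, 4], then 34, 30, and 28 [1, 0, 0], for KI against WT cells at 4, 24, and 48 hr 17, 24, and 47 [0, 0, 5], at 0, 4, and 24 hr of the *Stat5b* line 8, 34, and 49 [0, 0, 19], for the interaction 43 and 46 [0, 26], and for the difference between lines 33 [0].

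With limma on RPKM (pseudocounts 1 and 0.1), the 2-fold counts were 20 with 0.1 for WT cells at 24 hr of the *Stat5b* line [13], 22 and 22 for 24 against 4 hr in the *Stat5a* line [10], 0 and 0 for KI cells at 4 hr of each line [1, 1], 12 and 12 at 24 hr [7] and 10 and 13 at 48 hr [4] for *Stat5a* KI cells, and 0 and 2 for *Stat5a* KI against WT cells at 48 hr [5]. By the adjusted p alone, limma gave 24 and 23 for WT cells at 4 hr of the *Stat5b* line [30], where the balance reversed to 14 higher, 19 and 19 for *Stat5a* KI cells at 4 hr [31], reversed to 11 higher and 8 lower, 18 and 17 for *Stat5b* KI cells at 4 hr [34], 14 and 14 for *Stat5a* KI against WT cells at 4 hr [17], reversed to 13 higher, 11 and 11 at 24 hr [24], 1 and 1 at 0 hr [8] and 13 and 13 at 4 hr [34] in the *Stat5b* line, and 16 and 16 for the difference between lines [33]. *Rrp1* in *Stat5b* KI cells at 48 hr against 0 hr changed sign, from −0.16 log2 to 0.0265 and 0.0268. The cause of these changes was not tested, and RPKM carry the general shift stated above.

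With all 48 libraries, the adjusted p alone gave 19 and 16 for WT cells at 4 hr [32, 30], 18 for 48 against 24 hr of the *Stat5b* line [38], 15, 12, and 12 for *Stat5b* KI cells at 4, 24, and 48 hr [34, 30, 28], 10 for *Stat5a* KI against WT cells at 24 hr [24], 1 and 12 for the *Stat5b* line at 0 and 4 hr [8, 34], 25 for the *Stat5a* interaction [43], and 6 for the difference between lines [33]. With 2-fold it gave 5 for *Stat5a* KI cells at 4 hr, reversed to 4 higher [1], 3 higher for KI against WT cells at that time [0], and 1 for the *Stat5a* interaction [0], as did DESeq2 (1), its size factors (1), no filter (1), and the highest-count transcript (1). DESeq2, its size factors, and a fit of only the groups compared each called 2 *Stat5a* KI genes at 48 hr [4]. That last fit gave 15 for *Stat5a* line WT cells at 4 hr [32], 0 for KI against WT cells [17], and 14 for the *Stat5b* line at 0 hr [8], where no filter and the highest-count transcript each gave 13. The cause was not tested.

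Leaving out 1 library at a time moved 6 counts. They ran from 2 to 5 for *Stat5a* KI cells at 48 hr (2 without replicate 1 at 0 hr), from 0 to 2 for *Stat5a* KI against WT cells at 0 hr, from 3 to 23 at 4 hr (3 without KI replicate 1, which leaves 1 KI library, assumed to vary like the other groups), from 14 to 25 at 24 hr (14 without KI replicate 1), from 4 to 11 for the *Stat5b* line at 0 hr, and from 0 to 2 for the *Stat5a* interaction with 2-fold. With the replicate number as a block, WT cells of the *Stat5a* line had 11 and 25 genes at 24 and 48 hr by the 2-fold rule and 41 by the adjusted p alone at 24 hr, and the block moved no count by over 1.5 times. Of the log2 values of single genes, 1104 of those under the other alternatives kept direction and call, 73 lost the call, and 2 reversed. With 1 library left out, 945 kept direction and call and 39 lost the call.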
